A study of Mus musculus with 16 samples.

Results

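A list of 36 nuclear receptor genes, 36 of the 54838 genes counted, was followed in mouse liver in 2 settings of regrowth. The genes were chosen by name, and their Ensembl identifiers were matched to mouse symbols, a rule that uses no measured value. Earlier results of these data were known when the list was chosen. Livers of male, wild type C57BL/6J mice were used in every group. In the injection experiment, 3 samples came from mice given CCl4 (carbon tetrachloride, a solvent made toxic by hepatocyte enzymes) diluted in the same volume of olive oil, and 3 from mice given the oil alone, all by intraperitoneal injection at 2 µL per g of body weight, with whole liver taken at day 3. In the surgical experiment, partial hepatectomy (PH), 5 samples were liver regrown until day 3 and 5 were the liver resected at day 0. The injected controls thus carried the oil and the injection, whereas the surgical controls were tissue removed at the operation itself. The series title places the samples in a study of lipid composition during liver regeneration.

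Nuclear receptors are transcription factors that most often bind a small lipophilic ligand, such as a bile acid, an oxysterol, a fatty acid, a retinoid or a hormone, and then switch target genes on or off. Many liver members bind DNA as a pair with a retinoid X receptor, while HNF4α (Hnf4a) and LRH-1 (Nr5a2) maintain the hepatocyte gene programme with little dependence on a circulating ligand. In the liver this family is known for the control of bile acid, drug, lipid and glucose metabolism, and several members are known to affect liver regrowth.

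Library totals ranged over 4738196 to 6218526 counts in CCl4 livers, 4295169 to 5221957 counts in olive oil livers, 2795909 to 4391002 counts at PH day 3 and 3271398 to 8647503 counts at PH day 0. The labels do not say that the samples of a group came from separate animals, so p-values measure the spread between these samples. The labelled tissue showed its markers in every group, with 10 hepatocyte markers summing to 109328 to 157449 CPM (counts scaled by library size and TMM factor) in CCl4 livers, 114440 to 122458 CPM in olive oil livers, 131208 to 151644 CPM at PH day 3 and 90570.1 to 107515 CPM at PH day 0. CCl4 replicate 1 stood apart from the other CCl4 libraries, with a TMM scaling factor of 0.981 against 1.31 and 1.30, so receptor results that turn on it are given without it too. The 11 markers of pericentral hepatocytes, the cells around the central vein, summed to 1142 to 1681 CPM in CCl4 livers and 9992 to 11714 CPM in olive oil livers, with 6 of 10 tested called lower, and to 3425 to 5408 CPM at PH day 3 and 6833 to 9199 CPM at PH day 0, with 5 of 10 called lower. The 11 stellate cell and fibroblast markers summed to 460 to 1130 CPM in CCl4 livers and 136 to 189 CPM in olive oil livers, with 8 of 11 tested called higher. They summed to 257 to 828.8 CPM at PH day 3 and 131 to 275 CPM at PH day 0, with 5 of 10 tested called higher. Each marker of these lists had reads in each group. In whole tissue, fewer cells of a type and less RNA per cell cannot be told apart. The part of such shifts in the receptor results was not tested.

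The listed receptors spanned a wide range of levels in these livers. TPM values, which correct counts for exon length and sum to the same total in each library, were used to set genes side by side, and CPM scaled by TMM to follow 1 gene between samples. TPM carry no TMM factor and are read here within a group. Hnf4a, the master factor of hepatocyte identity, was highest in each group, at 363 ± 28.98 TPM in CCl4, 234 ± 22.7 TPM in olive oil, 320.3 ± 36.01 TPM at PH day 3 and 254 ± 54.5 TPM at PH day 0 (SD, n = 3 for each injected group and n = 5 for each PH day). Rxra, the common partner, came next in CCl4 livers at 171 ± 13.2 TPM, at PH day 3 at 186 ± 6.85 TPM and at PH day 0 at 183 ± 19.5 TPM. In olive oil livers the runner-up was Nr1i3, the drug sensor CAR, at 182 ± 16.01 TPM, and its samples overlapped those of Rxra at 159 ± 11.4 TPM. The bile acid receptor Nr1h4 was at 107 ± 15.3 TPM in CCl4 livers and 129 ± 10.8 TPM in olive oil livers. At PH day 0 the samples of Hnf4a and Rxra overlapped, as did those of Nr0b2, Nr1i3, Nr1i2 and Nr2f6 from each to the next.

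Summed over the list, receptor transcripts reached 1151 to 1307 TPM in CCl4 livers, 1037 to 1162 TPM in olive oil livers, 1061 to 1160.03 TPM at PH day 3 and 836 to 1061 TPM at PH day 0. These sums carry no TMM factor, so their order between groups is not read as a change in receptor RNA. Hnf4a made up 30.1 ± 0.614% of that sum in CCl4 livers and 21.3 ± 1.82% in olive oil livers, and 28.9 ± 3.39% at PH day 3 and 26.7 ± 4.11% at PH day 0. Nr1i3 made up 8.08 ± 3.44% in CCl4 livers and 16.6 ± 1.05% in olive oil livers. Its share was 4.68 ± 0.665% at PH day 3 and 5.10 ± 1.41% at PH day 0. Rxra held 14.1 ± 0.132% in CCl4 livers and 14.5 ± 1.57% in olive oil livers. The share of Hnf4a was thus larger and that of Nr1i3 smaller in CCl4 livers, with no overlap between those groups of 3, whereas the shares of Rxra overlapped.

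**Figure D1:**
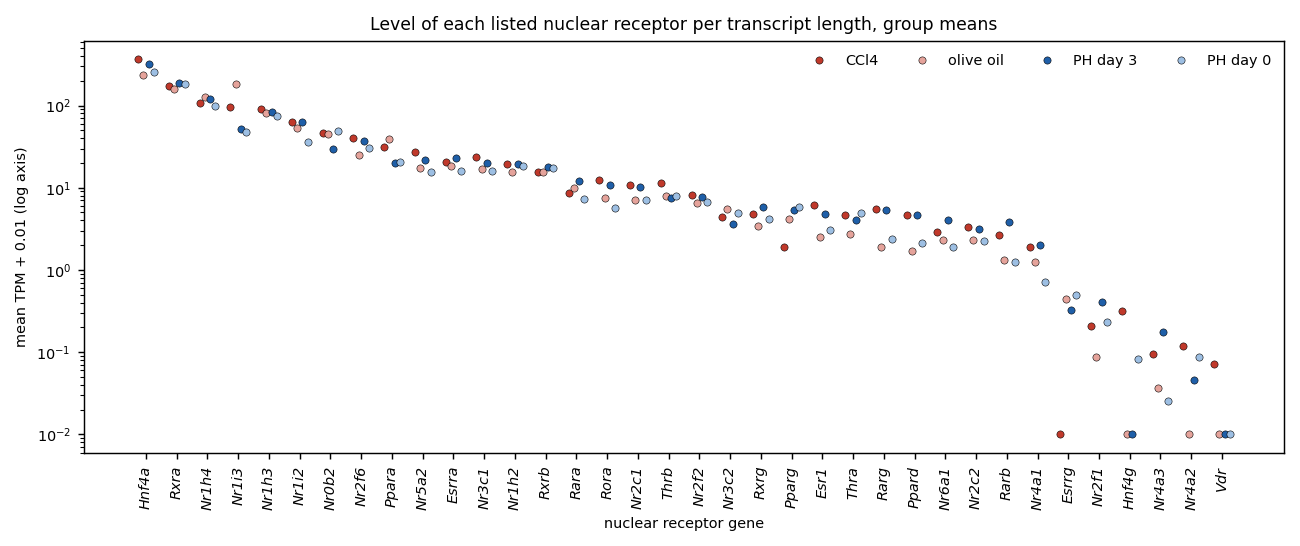
Mean level of each listed receptor in TPM plus 0.01 (vertical log axis) in CCl4, olive oil, PH day 3 and PH day 0 livers (points), ordered by level. Hnf4a is at the top in each group. Vdr, Hnf4g, Nr4a2, Nr4a3, Nr2f1 and Esrrg lie below 1 TPM in each group, and Nr4a1 does so at PH day 0.

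At the low end, Vdr, Hnf4g, Nr4a2, Nr4a3, Nr2f1 and Esrrg did not pass the filter on low counts in the injection experiment, and these 6 and Nr4a1 did not pass it in the surgical one. Vdr, the vitamin D receptor, had 2 reads over the CCl4 libraries and 0 in the other 3 groups. Hnf4g, a close relative of Hnf4a, had 5 reads over the CCl4 libraries and 0 over the olive oil libraries, and 0 at PH day 3 and 3 at PH day 0. The orphan receptors Nr4a2 and Nr4a3 of the immediate-early class stayed under 1 CPM in every library, and the COUP-TF member Nr2f1 under 2 CPM. Esrrg, an estrogen-related receptor of energy metabolism, had 0, 0 and 0 CPM in CCl4 livers and 2.76, 0.659 and 0.943 CPM in olive oil livers. It had 3.43, 0.260, 0, 0 and 0 CPM at PH day 3 and 1.97, 1.74, 1.87, 0.923 and 1.37 CPM at PH day 0. A count of 3 in 1 library corresponded to 0.370 to 1.03 CPM, a floor that covers counting error only, so most of these values lie near what single reads give.

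CCl4 against olive oil asks which receptors stood at another level 3 days after toxic injury. Several metabolic receptors were lower. Of the 30 receptors tested, 8 fell: Nr1h4, Ppara, Rara, Nr1h3, Rxrb, Pparg, Nr1i3 and Rxra (edgeR quasi-likelihood F test, p adjusted by Benjamini-Hochberg over all genes and under 0.05). Among all 11337 genes tested 22.9% were called, 11.3% rising and 11.6% falling, so the 26.7% of receptors called was near the share over all genes, while every called receptor was lower. With edgeR 0 receptors rose, 1 rose at an unadjusted p under 0.05 (Esr1), and DESeq2 and limma-voom also called 0 rising. The median log2 fold change was -0.36 over the receptors and 0.01 over all genes, with 24 receptors below 0. Samples of the groups did not overlap for 14 of the 30 receptors, against 41.7% of all genes. Scaling by library size alone shifted the median of all genes by 0.45 and left 3 receptors lower (Nr1h4, Nr1i3 and Ppara) and 3 higher (Esr1, Ppard and Rarg). Without CCl4 replicate 1, 10 receptors fell, Nr1i2 and Nr3c2 being added, whereas 4 fell without olive oil replicate 1 and 5 without olive oil replicate 3.

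PH day 3 against PH day 0 asks the same of the liver regrowing after surgery. Of the 29 receptors tested, Rora, Rarb and Nr1i2 rose, and Nr0b2, Rxra, Nr3c2 and Thrb fell. Among all 10546 genes tested 17.7% were called, 9.73% rising and 8.01% falling, against 24.1% of the receptors. The median log2 fold change was -0.04 over the receptors and -0.01 over all genes. Samples did not overlap for 4 of the 29 receptors, against 13.3% of all genes. Scaling by library size alone gave 6 receptors higher (Nr1i2, Nr6a1, Ppard, Rarb, Rarg and Rora) and 2 lower (Nr0b2 and Nr3c2). A fit of all 4 groups left Rora as the 1 receptor that rose, and 5 rose without PH day 3 replicate 16 or PH day 0 replicate 12.

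**Figure D2:**
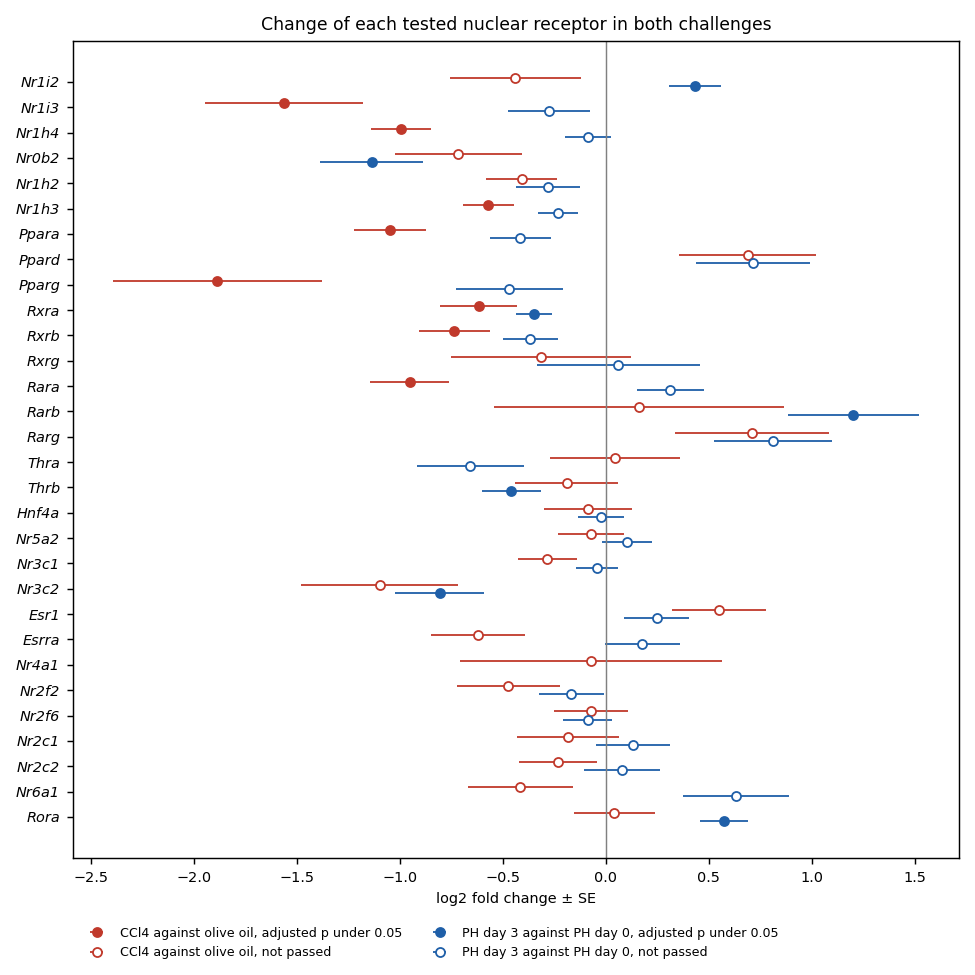
Log2 fold change of each tested receptor with its standard error (horizontal axis), for CCl4 against olive oil (red) and PH day 3 against PH day 0 (blue), with filled points for an adjusted p under 0.05. After CCl4 the 8 filled points all lie left of 0, and after PH 3 lie right and 4 left of it.

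Among the xenobiotic and bile acid receptors, CAR and FXR fell after CCl4, and PXR rose and SHP fell after PH. Nr1h4 encodes FXR, the bile acid receptor that restrains bile acid synthesis (ENSMUSG00000047638, chromosome 10, 89454234 to 89533585, minus strand of GRCm38). It had 92.5, 72.2 and 87.8 CPM in CCl4 livers, against 168, 163 and 166 CPM in olive oil livers. Every CCl4 sample was well below every olive oil sample. Its log2 fold change was -0.99 ± 0.15 (SE; edgeR adjusted p = 0.0012), and the call held under each alternative run. After PH it had 129.98, 110.4, 111, 114 and 90.3 CPM at day 3 and 139.5, 139.8, 108, 99.7 and 107 CPM at day 0 (replicates 12 to 16 in order). The PH groups overlapped over most of their range, at a log2 fold change of -0.09 ± 0.11 (SE; edgeR adjusted p = 0.66).

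Nr1i3 encodes CAR, the receptor through which phenobarbital-like compounds induce drug metabolism (ENSMUSG00000005677, chromosome 1, 171213970 to 171220701, plus strand). It had 261, 96.2 and 107 CPM in CCl4 livers, against 428, 409 and 517 CPM in olive oil livers. CCl4 replicate 1 was the highest of its group, yet below each olive oil sample. The log2 fold change was -1.56 ± 0.38 (SE; edgeR adjusted p = 0.023). It was -2.16 without CCl4 replicate 1, and the call ended without CCl4 replicate 3 or any 1 olive oil sample (edgeR adjusted p = 0.051 to 0.076). At PH day 3 Nr1i3 had 84.8, 94.2, 115, 89.1 and 78.4 CPM, and at PH day 0 137, 157, 104, 72.9 and 91.99 CPM. These groups overlapped and did not pass the test, at -0.28 ± 0.20 (SE; edgeR adjusted p = 0.40). Both PH groups lay far below olive oil livers, a contrast in which experiment and treatment cannot be told apart.

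Nr1i2 encodes PXR, the sensor of drugs and toxic bile acids (ENSMUSG00000022809, chromosome 16, 38248323 to 38294824, minus strand). It had 67.6, 66.9, 59.7, 76.7 and 55.5 CPM at PH day 3, against 62.9, 50.4, 36.6, 45.5 and 47.4 CPM at PH day 0. Most day 3 samples were above the day 0 samples, but the ranges overlapped. Its log2 fold change after PH was 0.43 ± 0.13 (SE; edgeR adjusted p = 0.019). The call ended in the 4-group fit (adjusted p = 0.18) and without PH day 3 replicate 15, PH day 0 replicate 14 or PH day 0 replicate 15 (edgeR adjusted p = 0.054 to 0.068). In the injection experiment it had 89.3, 35.6 and 47.1 CPM in CCl4 livers and 76.2, 72.04 and 80.7 CPM in olive oil livers. CCl4 replicate 1 lay above every olive oil sample and the other CCl4 samples below them all. The change of -0.44 ± 0.32 (SE; edgeR adjusted p = 0.37) did not pass with all samples, and without CCl4 replicate 1 it was -0.90 (edgeR adjusted p = 0.00038). In that replicate the 10 periportal hepatocyte markers summed to 8671 CPM, the highest of its group, whose lowest sum was 2792 CPM, while olive oil livers had 7939 to 8742 CPM; their part was not tested.

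Nr0b2 encodes SHP, a receptor without a DNA-binding domain that FXR induces and that represses bile acid synthesis (ENSMUSG00000037583, chromosome 4, 133553376 to 133556536, plus strand). It had 18.05, 8.85, 17.6, 8.98 and 13.6 CPM at PH day 3, against 30.9, 36.8, 17.6, 23.5 and 40.2 CPM at PH day 0. Day 3 samples were low, and only their upper end reached the lowest day 0 sample. On the log2 scale the change was -1.14 ± 0.25 (SE; edgeR adjusted p = 0.0045), and the call held under each alternative run. In CCl4 livers it had 15.9, 14.9 and 21.4 CPM, and in olive oil livers 36.6, 15.4 and 32.8 CPM. Olive oil replicate 2 lay among the CCl4 samples, and the change of -0.72 ± 0.31 (SE; edgeR adjusted p = 0.13) did not pass. It was called without a filter on low counts (edgeR adjusted p = 0.0076) and, at -1.03, without olive oil replicate 2 (edgeR adjusted p = 0.016).

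The promoters of Nr1i3 and Nr0b2 are shown because these receptors fell, each in a different challenge. RefSeq promoters of GRCm38.p6 were given for 33 of the 36 receptors, those without being Nr3c1, Hnf4g and Thra. Each sequence holds the 250 bases before the start of the gene, at chr1:171213720-171213969 on the plus strand for Nr1i3 and at chr4:133553126-133553375 on the plus strand for Nr0b2. Capitals mark the letters CACGTG, the E-box to which clock factors such as CLOCK and BMAL1 can bind, and in Nr0b2 also CAAGGNCA, the extended binding site of LRH-1 type receptors, whose last 2 bases are the first 2 of the E-box.
Nr1i3: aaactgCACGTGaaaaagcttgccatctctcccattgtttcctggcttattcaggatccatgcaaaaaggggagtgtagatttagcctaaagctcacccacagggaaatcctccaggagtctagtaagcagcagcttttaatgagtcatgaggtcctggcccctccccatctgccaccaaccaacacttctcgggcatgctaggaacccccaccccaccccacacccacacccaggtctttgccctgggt
Nr0b2: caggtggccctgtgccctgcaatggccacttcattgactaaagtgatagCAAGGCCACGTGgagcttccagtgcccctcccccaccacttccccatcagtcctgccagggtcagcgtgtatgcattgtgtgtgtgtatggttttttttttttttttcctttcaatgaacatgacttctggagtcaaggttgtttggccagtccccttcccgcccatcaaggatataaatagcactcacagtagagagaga
Over both strands, CACGTG stood in 6.02% of 32851 promoters of this length and in those of 4 receptors (Nr0b2, Nr1i3, Rara and Thrb). CAAGGNCA stood in 5.53% of them and in those of Nr0b2 and Rara. The plain receptor site AGGTCA stood in 14.0% of all promoters and in 8 of the 33 receptor promoters. These matches are letters only and show no binding.

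Of 16 CAR and PXR target genes tested, 5 were called after CCl4, all lower, and 6 after PH, 4 higher and 2 lower. Ugt1a1, which conjugates bilirubin, fell after CCl4 (-1.29 ± 0.20, edgeR adjusted p = 0.0016) and after PH (-0.51 ± 0.12, edgeR adjusted p = 0.0047). Cyp3a11, a drug oxidase, rose to 6053 ± 1259 CPM at PH day 3, against 2231 ± 281 CPM at PH day 0 (SD, n = 5 each). Its log2 fold change was 1.45 ± 0.13 (SE; edgeR adjusted p = 2.3e-08), a call that ended in the 4-group fit (adjusted p = 0.060). Near-identical Cyp3a genes make its value uncertain, because reads that map to several places were not counted. Among the FXR, SHP and LRH-1 target genes, 9 of 13 fell after CCl4, and 7 of 13 fell and 1 rose after PH. The sterol hydroxylase Cyp7b1 was at 88.4 ± 20.3 CPM in CCl4 livers and 557 ± 81.7 CPM in olive oil livers (SD, n = 3 each), a change of -2.67 ± 0.22 (SE; edgeR adjusted p = 5.3e-05). It was at 149 ± 18.6 CPM at PH day 3 and 554 ± 66.3 CPM at PH day 0, a change of -1.89 ± 0.10 (SE; edgeR adjusted p = 1.3e-11). Cyp7b1 thus fell in both challenges. The 1 member that rose after PH was Cyp7a1, which catalyses the first step of the classic route of bile acid synthesis (0.84 ± 0.22, edgeR adjusted p = 0.024), and its call ended in the 4-group fit (adjusted p = 0.36), with the replicate number as a block (edgeR adjusted p = 0.066) and without PH day 3 replicate 16 or PH day 0 replicate 13, 15 or 16 (0.053 to 0.061). The lists were described by counts, read against 22.9% and 17.7% of all genes called.

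Of the oxysterol receptors, LXRα fell after CCl4. Nr1h3 encodes LXRα, which drives sterol export and lipid synthesis in hepatocytes and is also used by Kupffer cells (ENSMUSG00000002108, chromosome 2, 91184061 to 91202834, minus strand). It had 79.6, 77.1 and 75.7 CPM in CCl4 livers, against 116, 115 and 109 CPM in olive oil livers. The CCl4 samples were close together and all below the olive oil samples. Its log2 fold change of -0.57 ± 0.12 (SE; edgeR adjusted p = 0.0089) was small, and the call ended with scaling by library size alone (-0.13, edgeR adjusted p = 0.64). Of the 14 macrophage markers tested beside it, 5 rose and 1, the resident Kupffer cell marker Timd4, fell. They summed to 480 to 671 CPM in CCl4 livers and 181 to 553 CPM in olive oil livers, and their part was not tested. At PH day 3 Nr1h3 had 82.2, 74.7, 82.9, 90.98 and 87.9 CPM, and at PH day 0 109, 93.1, 82.5, 104 and 106 CPM. Most day 3 samples were lower, but PH day 0 replicate 14 lay among them, and the change of -0.23 ± 0.10 (SE; edgeR adjusted p = 0.11) did not pass with it. Without that sample it was -0.30 (edgeR adjusted p = 0.043). Nr1h2, the more widely expressed LXRβ, was tested at -0.41 ± 0.17 after CCl4 and -0.28 ± 0.16 after PH, without a call. Of 13 LXR target genes tested after CCl4, 4 fell and 1 rose, and of 12 after PH, 1 fell and 2 rose. Abcg5, part of the sterol exporter of the bile canaliculus, fell after CCl4 (-1.49 ± 0.18, edgeR adjusted p = 0.00039). Its partner Abcg8 fell after CCl4 (-1.25 ± 0.16, edgeR adjusted p = 0.00057) and after PH (-0.95 ± 0.12, edgeR adjusted p = 4.5e-06).

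Of the fatty acid receptors, PPARα and PPARγ fell after CCl4. Ppara encodes PPARα, the inducer of fatty acid oxidation in fasting (ENSMUSG00000022383, chromosome 15, 85734983 to 85802819, plus strand). It had 51.4, 36.3 and 35.8 CPM in CCl4 livers, against 88.99, 88.1 and 74.3 CPM in olive oil livers. CCl4 replicate 1 was the highest of its group, and all CCl4 samples lay below the olive oil samples. The change in log2 was -1.05 ± 0.17 (SE; edgeR adjusted p = 0.0021), a call that held under each alternative run. PH samples had 37.2, 30.2, 34.6, 28.1 and 22.1 CPM at day 3 and 37.4, 54.9, 36.03, 40.6 and 36.7 CPM at day 0. Day 3 samples tended to be lower and overlapped the day 0 samples. The change of -0.42 ± 0.15 (SE; edgeR adjusted p = 0.054) just missed the threshold and passed under 6 of 18 alternatives, among them no filter on low counts (edgeR adjusted p = 0.016).

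Pparg encodes PPARγ, which is known for lipid storage and is a minor receptor in normal hepatocytes (ENSMUSG00000000440, chromosome 6, 115360951 to 115490399, plus strand). It had 0.637, 2.83 and 1.80 CPM in CCl4 livers, against 7.27, 4.61 and 8.49 CPM in olive oil livers. The groups did not overlap, at levels near the low end of what was tested. The log2 fold change was -1.89 ± 0.51 (SE; edgeR adjusted p = 0.023), and the call ended with library size scaling (edgeR adjusted p = 0.073) and without CCl4 replicate 3, olive oil replicate 1 or olive oil replicate 3 (edgeR adjusted p = 0.064 to 0.10). PH samples had 6.40, 9.11, 5.34, 5.07 and 5.79 CPM at day 3 and 6.83, 10.2, 12.01, 9.001 and 6.52 CPM at day 0. Those groups overlapped, with no call at -0.47 ± 0.26 (SE; edgeR adjusted p = 0.24). Ppard, the broadly expressed PPARδ, was at 0.69 ± 0.33 after CCl4 and 0.72 ± 0.28 after PH, on the positive side in both and not called with all samples and TMM scaling. After PH it was called with the replicate number as a block (0.77, edgeR adjusted p = 0.021), with library size scaling (edgeR adjusted p = 0.024), without a filter on low counts (edgeR adjusted p = 0.025) and without PH day 3 replicate 13, PH day 3 replicate 16 or PH day 0 replicate 12, the last giving 1.06 (edgeR adjusted p = 0.0063).

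Among 22 PPARα target genes tested after CCl4, 4 fell and 1 rose, and of 21 tested after PH, 2 fell and 3 rose. The peroxisomal thiolase Acaa1b had the smallest adjusted p of those that fell after CCl4, at -2.34 ± 0.23 (SE; edgeR adjusted p = 0.00015). Pdk4, the kinase that spares glucose by shutting pyruvate dehydrogenase, went the other way at 4.17 ± 0.76 (SE; edgeR adjusted p = 0.0090). Its call ended with limma-voom (adjusted p = 0.059) and without olive oil replicate 3 (edgeR adjusted p = 0.052). After PH the fatty acid dehydrogenase Acadm rose (0.49 ± 0.09, edgeR adjusted p = 0.00032), and the fatty acid carrier Fabp1 fell (-0.61 ± 0.13, edgeR adjusted p = 0.0013), as it did after CCl4 (-1.26 ± 0.30, edgeR adjusted p = 0.014). That call after CCl4 ended with library size scaling (edgeR adjusted p = 0.089) and without CCl4 replicate 3, olive oil replicate 1 or olive oil replicate 3 (edgeR adjusted p = 0.053 to 0.065). Targets of PPARα thus moved both ways in each challenge.

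**Figure D3:**
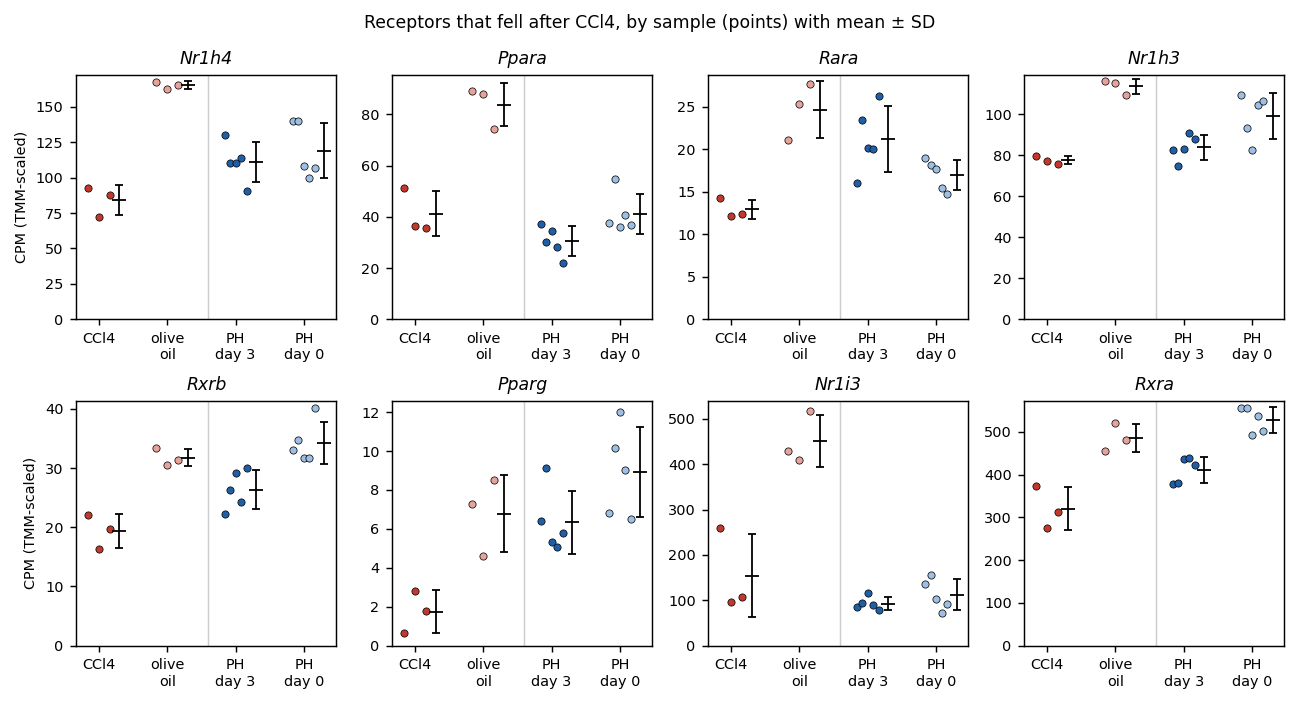
CPM scaled by TMM (vertical axis, from 0) of the 8 receptors that fell after CCl4, per sample (points) with mean and SD, in CCl4, olive oil, PH day 3 and PH day 0 livers. In each panel all 3 CCl4 points lie below all 3 olive oil points.

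The retinoid X receptors are the shared partners of most receptors above. Rxra was the 1 receptor of 29 tested in both experiments that was called in the same direction in both, against 983 of 10468 genes (9.39%). It had 374, 276 and 312 CPM in CCl4 livers, against 455, 519.9 and 480.4 CPM in olive oil livers (ENSMUSG00000015846, chromosome 2, 27676440 to 27762957, plus strand). All CCl4 samples were below the olive oil samples. Its log2 fold change was -0.62 ± 0.19 (SE; edgeR adjusted p = 0.037). That call ended with library size scaling (edgeR adjusted p = 0.49) and without CCl4 replicate 2, CCl4 replicate 3 or any 1 olive oil sample (edgeR adjusted p = 0.081 to 0.15). At PH day 3 it had 379, 379.5, 437, 438 and 423 CPM, against 554, 557, 492, 536 and 501 CPM at PH day 0. Every day 3 sample was below every day 0 sample. The change in log2 was -0.35 ± 0.09 (SE; edgeR adjusted p = 0.0054), and the call ended with library size scaling (edgeR adjusted p = 0.083).

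Rxrb, the second partner, had 22.1, 16.4 and 19.8 CPM in CCl4 livers, against 33.3, 30.5 and 31.4 CPM in olive oil livers (ENSMUSG00000039656, chromosome 17, 34031812 to 34038393, plus strand). The groups were clearly separate. It fell, with a log2 fold change of -0.74 ± 0.17 (SE; edgeR adjusted p = 0.013), and the call ended with library size scaling (edgeR adjusted p = 0.29) and without CCl4 replicate 2 or olive oil replicate 1 (edgeR adjusted p = 0.058 and 0.050). At PH day 3 Rxrb had 22.2, 26.3, 29.2, 24.2 and 29.99 CPM and at PH day 0 32.98, 34.8, 31.8, 31.6 and 40.2 CPM. These samples did not overlap either, and the change of -0.37 ± 0.13 (SE; edgeR adjusted p = 0.057) narrowly missed the threshold, which it passed with limma-voom (adjusted p = 0.046), in the 4-group fit and without PH day 3 replicate 14 or 16. Rxrg, the least abundant partner, stayed under 10 CPM in each library and was called in neither comparison.

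Of the retinoic acid receptors, RARα fell after CCl4 and RARβ rose after PH. Rara encodes RARα (ENSMUSG00000037992, chromosome 11, 98927818 to 98974942, plus strand). It had 14.2, 12.2 and 12.4 CPM in CCl4 livers, against 21.1, 25.3 and 27.6 CPM in olive oil livers. The CCl4 samples were tightly grouped and all lower. On the log2 scale the change was -0.95 ± 0.19 (SE; edgeR adjusted p = 0.0059), lost with library size scaling (edgeR adjusted p = 0.11). After surgery it had 15.99, 23.4, 20.1, 20.04 and 26.2 CPM at PH day 3 and 18.9, 18.1, 17.6, 15.5 and 14.8 CPM at PH day 0. Day 3 samples reached higher and overlapped day 0, with no call at 0.31 ± 0.16 (SE; edgeR adjusted p = 0.21).

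Rarb encodes RARβ, which is itself a classic target of retinoic acid (ENSMUSG00000017491, chromosome 14, 16430839 to 16819156, minus strand). It had 8.22, 11.7, 8.48, 4.61 and 7.16 CPM at PH day 3, against 3.68, 4.72, 2.67, 2.08 and 4.46 CPM at PH day 0. Day 3 samples were higher apart from replicate 15, which lay just below the highest day 0 sample. The log2 fold change was 1.20 ± 0.32 (SE; edgeR adjusted p = 0.0095), a call that ended in the 4-group fit (adjusted p = 0.064). In CCl4 livers it had 1.49, 7.51 and 4.25 CPM, and in olive oil livers 0.752, 5.05 and 6.13 CPM. Replicate 1 was low in both of those groups, and no change was called at 0.16 ± 0.70 (SE; edgeR adjusted p = 0.90). Rarg, the third isotype, was at 0.71 ± 0.37 after CCl4 and 0.81 ± 0.29 after PH, and missed the threshold in both (edgeR adjusted p = 0.20 and 0.051). After PH it passed under 6 of 18 alternatives, among them DESeq2 (0.82, adjusted p = 0.038), and after CCl4 with library size scaling.

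The promoter of Rarb is shown because the receptor rose after PH and is a textbook target gene of retinoic acid through a response element near one of its starts. The 250 bases before the start that RefSeq gives lie at chr14:16575477-16575726 on the minus strand. That start is inside the span given above for the gene, not at its end. Capitals mark a match to GGTTCANNNNNAGTTCA, the letters known from that element.
Rarb: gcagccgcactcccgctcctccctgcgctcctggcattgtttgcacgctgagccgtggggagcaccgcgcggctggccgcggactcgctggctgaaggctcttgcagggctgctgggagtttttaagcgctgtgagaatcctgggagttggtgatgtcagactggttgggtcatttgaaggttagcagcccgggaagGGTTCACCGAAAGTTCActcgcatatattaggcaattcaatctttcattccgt
Of 32851 promoters of this length, 2 held these letters on either strand (0.00609%), and Rarb was the 1 receptor among them. Of 7 genes of retinoic acid response and retinoid handling tested after CCl4, 2 rose and 2 fell, and of 8 after PH, 2 rose and 1 fell. Tgm2, a transglutaminase that retinoic acid induces, had 411 ± 49.5 CPM at PH day 3 and 179.8 ± 38.9 CPM at PH day 0 (SD, n = 5 each), a change of 1.20 ± 0.13 (SE; edgeR adjusted p = 2.1e-06). It also rose after CCl4, at 1.12 ± 0.19 (SE; edgeR adjusted p = 0.0027). Dhrs3, which turns retinal back to retinol, fell after CCl4 at -1.11 ± 0.23 (SE; edgeR adjusted p = 0.0067), a call lost with library size scaling (edgeR adjusted p = 0.15).

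Of the thyroid hormone receptors, Thrb, the main hepatic isotype, fell after PH (ENSMUSG00000021779, chromosome 14, 17660261 to 18038090, plus strand). It had 23.3, 23.4, 21.05, 20.5 and 22.1 CPM at PH day 3, against 23.9, 33.03, 35.2, 34.4 and 27.1 CPM at PH day 0. Day 3 samples were tightly grouped and all below day 0, the closest by a small margin. On the log2 scale the change was -0.46 ± 0.14 (SE; edgeR adjusted p = 0.027). The call ended with library size scaling (edgeR adjusted p = 0.16), limma-voom (adjusted p = 0.054), the 4-group fit (adjusted p = 0.059), and without PH day 3 replicate 14 or 15 or PH day 0 replicate 13, 14 or 15 (edgeR adjusted p = 0.051 to 0.072). In CCl4 livers Thrb had 32.3, 19.95 and 35.1 CPM and in olive oil livers 37.1, 23.7 and 37.03 CPM. Those groups overlapped, at -0.19 ± 0.25 (SE; edgeR adjusted p = 0.63). Thra was at 0.04 ± 0.31 after CCl4 and -0.66 ± 0.26 after PH, without a call, and passed after PH without PH day 3 replicate 15 (-0.88, edgeR adjusted p = 0.029). Dio1, the deiodinase that thyroid hormone induces, was at 44.7 ± 17.03 CPM in CCl4 livers and 250.01 ± 21.2 CPM in olive oil livers, a change of -2.50 ± 0.27 (SE; edgeR adjusted p = 0.00036). It was at 32.1 ± 13.1 CPM at PH day 3 and 149 ± 38.2 CPM at PH day 0, a change of -2.22 ± 0.30 (SE; edgeR adjusted p = 0.00090). Of the 5 thyroid hormone target genes tested in each comparison, 2 fell after CCl4 and 1 after PH.

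Hnf4a and Nr5a2, receptors of hepatocyte identity, were called in neither challenge. Hnf4a had 721, 504.5 and 588 CPM in CCl4 livers and 584, 573 and 743 CPM in olive oil livers. It had 498, 567.7, 649.7, 734 and 683 CPM at PH day 3 and 514, 617, 642, 784 and 656 CPM at PH day 0. Samples of the groups overlapped in both experiments. The log2 fold changes were -0.09 ± 0.21 (SE; edgeR adjusted p = 0.81) after CCl4 and -0.02 ± 0.11 (SE; edgeR adjusted p = 0.92) after PH. Nr5a2, known as LRH-1, a driver of bile acid synthesis, was at -0.07 ± 0.16 (SE; edgeR adjusted p = 0.79) and 0.10 ± 0.12 (SE; edgeR adjusted p = 0.64) in the same comparisons. A missed threshold does not show that these levels were equal. Among the HNF4α target genes, 4 of 14 fell and 1 rose after CCl4, and 3 of 14 fell and 3 rose after PH. Apoa2, an apolipoprotein of high-density lipoprotein, fell after CCl4 at -1.66 ± 0.30 (SE; edgeR adjusted p = 0.0033), and Apom, a carrier in the same particles, rose at 0.78 ± 0.16 (SE; edgeR adjusted p = 0.0071), a call that ended without olive oil replicate 3 (edgeR adjusted p = 0.055). After PH the clotting inhibitor Proc fell at -0.62 ± 0.09 (SE; edgeR adjusted p = 1.8e-05), and after CCl4 it fell at -0.89 ± 0.18 (SE; edgeR adjusted p = 0.0067), a call lost with library size scaling (edgeR adjusted p = 0.11). Apoa2 also fell after PH (-0.73 ± 0.11, edgeR adjusted p = 1.9e-05), and Apom also rose (0.34 ± 0.08, edgeR adjusted p = 0.0050).

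The ratio to Hnf4a within each library does not depend on the scaling between libraries, and was computed after the values were seen. On the log2 scale of counts, Nr1h4 relative to Hnf4a was -2.84 ± 0.11 in CCl4 livers and -1.93 ± 0.21 in olive oil livers (SD, n = 3 each). Ppara relative to Hnf4a was -3.88 ± 0.14 in CCl4 livers and -2.91 ± 0.35 in olive oil livers. Nr1i3 was -2.10 ± 0.55 in CCl4 livers and -0.49 ± 0.04 in olive oil livers. Rara relative to Hnf4a was -5.52 ± 0.15 in CCl4 livers and -4.68 ± 0.16 in olive oil livers. Of the 8 receptors that fell after CCl4, 7 had ratios without overlap between the groups, whereas those of Nr1h3 overlapped, at -2.95 ± 0.23 in CCl4 livers and -2.47 ± 0.25 in olive oil livers. All 8 had been called and had CPM without overlap, so this count is no separate support. The share of all genes with such ratios was not computed. The ratios of all 7 receptors called after PH overlapped between the days, also those of Rora, Rxra and Thrb, whose CPM did not. Rora relative to Hnf4a was -3.45 ± 0.33 at PH day 3 and -4.04 ± 0.32 at PH day 0 (SD, n = 5 each). A ratio shows unequal change between the genes, not which of them changed.

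Among steroid receptors, the mineralocorticoid receptor Nr3c2 fell after PH (ENSMUSG00000031618, chromosome 8, 76899442 to 77245012, plus strand). It had 8.91, 8.33, 12.3, 6.45 and 10.9 CPM at PH day 3, against 13.1, 16.4, 20.02, 20.3 and 12.01 CPM at PH day 0. Day 3 samples were lower, with a slight overlap at the top of day 3 and the bottom of day 0. The change in log2 was -0.81 ± 0.22 (SE; edgeR adjusted p = 0.0097), and the call held under each alternative run. In CCl4 livers it had 3.61, 11.8 and 11.8 CPM and in olive oil livers 24.3, 18.4 and 16.04 CPM. CCl4 samples were all lower, with replicate 1 the lowest, and the change of -1.10 ± 0.38 (SE; edgeR adjusted p = 0.068) missed the threshold. It was called with DESeq2 (adjusted p = 0.039), without a filter on low counts, in the 4-group fit and without CCl4 replicate 1 (-0.74, edgeR adjusted p = 0.032). Nr3c1, the glucocorticoid receptor, was at -0.28 ± 0.14 after CCl4 and -0.04 ± 0.10 after PH. Esr1, the estrogen receptor ERα, was at 0.55 ± 0.23 and 0.25 ± 0.16. Neither was called, and Esr1 passed after CCl4 with library size scaling (0.99) and without olive oil replicate 2 (0.79).

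Of 15 glucocorticoid receptor target genes tested in each comparison, 2 fell after CCl4, and 4 rose and 1 fell after PH. Tdo2, the tryptophan dioxygenase of the liver, fell after CCl4 (-1.20 ± 0.33, edgeR adjusted p = 0.027) and after PH (-0.81 ± 0.12, edgeR adjusted p = 3.8e-05). Its call after CCl4 ended without CCl4 replicate 2, CCl4 replicate 3 or any 1 olive oil sample (edgeR adjusted p = 0.073 to 0.096). Sgk1, a kinase that glucocorticoids and mineralocorticoids induce, rose after PH (1.33 ± 0.25, edgeR adjusted p = 0.0017), a call that ended in the 4-group fit (adjusted p = 0.11).

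The estrogen-related receptor Esrra, which supports mitochondrial genes, was at -0.62 ± 0.23 after CCl4 and 0.18 ± 0.18 after PH. Nr4a1, an immediate-early orphan receptor, was tested after CCl4 only, at -0.07 ± 0.64, and had at most 5.11 CPM in any library. The orphan receptors Nr2f2 and Nr2f6 of the COUP-TF group and the testicular receptors Nr2c1 and Nr2c2 ranged in log2 fold change between -0.47 ± 0.25 (Nr2f2) and -0.07 ± 0.18 (Nr2f6) after CCl4. After PH they ranged between -0.17 ± 0.16 (Nr2f2) and 0.13 ± 0.18 (Nr2c1). Nr6a1, the germ cell nuclear factor, was at -0.42 ± 0.25 after CCl4 and 0.63 ± 0.26 after PH. With all samples and TMM scaling edgeR called 0 of these 7 receptors, as did DESeq2 and limma-voom, and at an unadjusted p under 0.05 Esrra was lower after CCl4 and Nr6a1 higher after PH. Esrra was called after CCl4 without a filter on low counts (edgeR adjusted p = 0.029) and without CCl4 replicate 3 (-0.86, edgeR adjusted p = 0.029). Nr6a1 was called higher after PH with the replicate number as a block (0.74, edgeR adjusted p = 0.033), with library size scaling (edgeR adjusted p = 0.023), without a filter (edgeR adjusted p = 0.027) and without PH day 0 replicate 12 (1.06, edgeR adjusted p = 0.00099).

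Rora encodes RORα, an activator of the clock gene Arntl and of lipid genes (ENSMUSG00000032238, chromosome 9, 68653786 to 69388246, plus strand). It had 55.97, 67.9, 47.8, 55.05 and 59.3 CPM at PH day 3, against 41.8, 43.96, 34.2, 36.7 and 36.7 CPM at PH day 0. Every day 3 sample was above every day 0 sample. Its log2 fold change was 0.57 ± 0.12 (SE; edgeR adjusted p = 0.00094), and the call held under each alternative run. In CCl4 livers it had 72.1, 54.8 and 42.2 CPM and in olive oil livers 53.6, 59.7 and 48.6 CPM. The CCl4 samples spread on both sides of the olive oil samples, at 0.04 ± 0.20 (SE; edgeR adjusted p = 0.91). Outside the list, the clock repressor Nr1d2, REV-ERBβ, was at 35.99 ± 12.97 CPM in CCl4 livers and 91.6 ± 3.63 CPM in olive oil livers, a change of -1.36 ± 0.25 (SE; edgeR adjusted p = 0.0044) that was lost with library size scaling (edgeR adjusted p = 0.069). Of 15 clock genes tested after CCl4, 9 fell and 3 rose, and of 13 after PH, 1 fell and 2 rose. Arntl, which encodes BMAL1, had 16.4 ± 2.86 CPM in CCl4 livers and 1.41 ± 0.605 CPM in olive oil livers, a change of 3.51 ± 0.37 (SE; edgeR adjusted p = 0.00019). It had 22.2 ± 6.34 CPM at PH day 3 and 14.3 ± 7.14 CPM at PH day 0. The part of clock phase in the receptor levels was not tested.

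**Figure D4:**
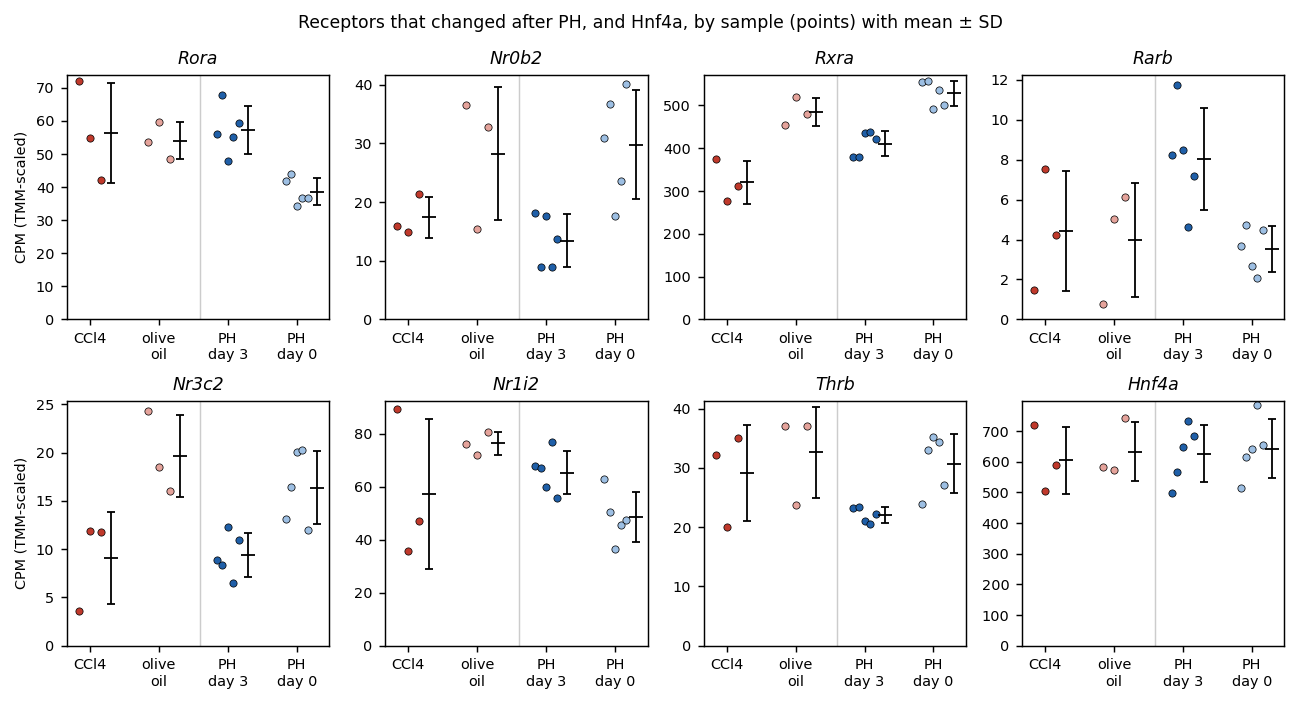
CPM scaled by TMM (vertical axis, from 0) of the 7 receptors that changed after PH and of Hnf4a, per sample (points) with mean and SD, in CCl4, olive oil, PH day 3 and PH day 0 livers. Rora, Rxra and Thrb show no overlap between the PH days, whereas Hnf4a overlaps in both experiments.

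The change after CCl4 was set against the change after PH by testing their difference over all 16 samples. Of the 30 receptors tested, Rara and Nr1h4 differed, both lower after CCl4, against 5.33% of 11868 genes called (1.47% higher and 3.87% lower after CCl4). Rara had a difference of -1.24 ± 0.25 (SE; edgeR adjusted p = 0.0039), a call that held under each alternative run. Nr1h4 had a difference of -0.88 ± 0.19 (SE; edgeR adjusted p = 0.0060), which library size scaling ended (-0.61, edgeR adjusted p = 0.079). DESeq2 and limma-voom called these receptors and also Nr1i3, at -1.27 (adjusted p = 0.023) and -1.44 (adjusted p = 0.030), which edgeR did not call (-1.26 ± 0.44, edgeR adjusted p = 0.13). With edgeR, DESeq2 and limma-voom 0 receptors were higher after CCl4, and 0 were so at an unadjusted p under 0.05. Without CCl4 replicate 1 the receptors that differed were 6: Nr1h4, Nr1i2, Nr1i3, Ppara, Rara and Rora. In that setting the difference of Nr1i2 was -1.31 (edgeR adjusted p = 0.00024). The challenges were separate experiments with separate controls, and experiment and challenge cannot be told apart in these values. The 6 receptors called after PH but not after CCl4 did not pass this test with all samples. They were Nr0b2 (0.46 ± 0.44, edgeR adjusted p = 0.64), Nr3c2 (-0.26 ± 0.41, edgeR adjusted p = 0.81), Thrb (0.30 ± 0.26, edgeR adjusted p = 0.59), Rora (-0.50 ± 0.21, edgeR adjusted p = 0.18), Rarb (-1.01 ± 0.69, edgeR adjusted p = 0.46) and Nr1i2 (-0.85 ± 0.32, edgeR adjusted p = 0.15). Of the 7 called after CCl4 only, Ppara, Nr1h3, Rxrb, Pparg and Nr1i3 did not pass it either (edgeR adjusted p = 0.13 to 0.39). A call in 1 challenge alone is thus not a shown difference between the challenges for these receptors.

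Coactivators and corepressors, the proteins that receptors recruit, were seldom called. Of 24 tested after CCl4, 2 rose (Brd8 and Prmt1), and of 22 after PH, 2 rose (Trim24 and Prmt1), shares below those over all genes. Brd8, a bromodomain partner of nuclear receptors, was at 1.10 ± 0.20 (SE; edgeR adjusted p = 0.0035) after CCl4.

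**Figure D5:**
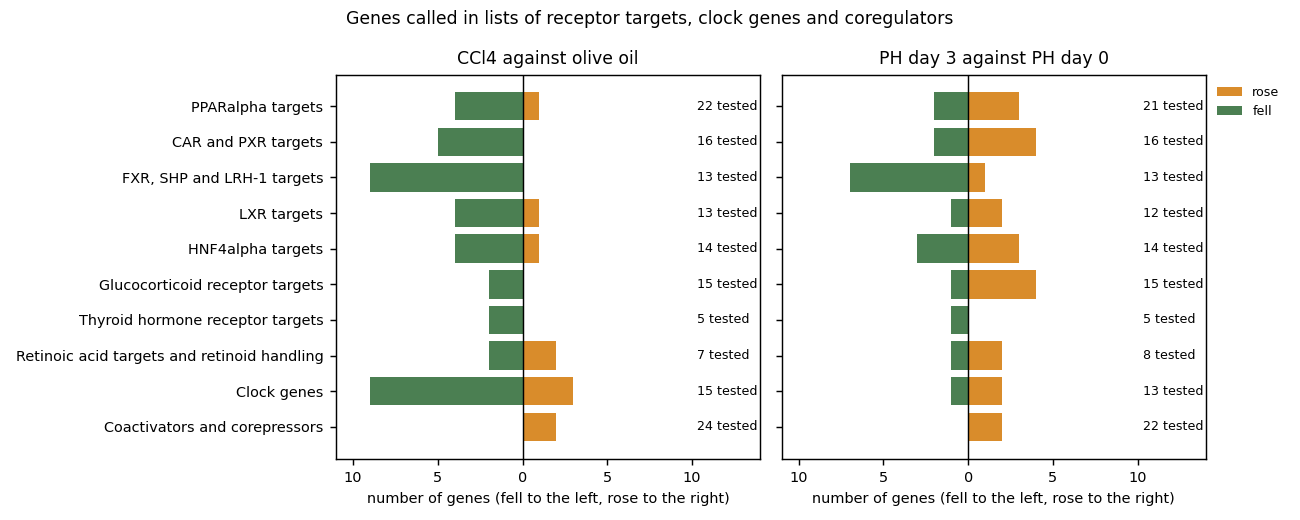
Number of genes that fell (left) and rose (right) in each list of receptor targets, clock genes and coregulators, for CCl4 against olive oil and PH day 3 against PH day 0, with the number tested. The FXR, SHP and LRH-1 targets have 9 genes that fell after CCl4 and 7 after PH, and the coregulators 2 that rose in each.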

How the data were processed

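Polyadenylated RNA of 16 liver samples was sequenced. Gene-level raw counts were deposited by the authors, made with featureCounts 1.6.2 over exons of Ensembl release 95 (GRCm38), reverse-stranded, without multi-mapping reads or reads that overlap several genes, per the file headers. STAR 2.5.1 and Subread are named per the submitters' processing notes. Injection and PH samples belong to different experiments, per the file headers.

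From these counts, TMM-scaled CPM, TPM (with the exon lengths in the files) and edgeR 4.0.16 quasi-likelihood tests (robust, R 4.3.3) were computed on genes kept by filterByExpr (counts of at least 10, totals of at least 15), with Benjamini-Hochberg adjustment over all of them and a call at an adjusted p under 0.05. The SE of a log2 fold change was taken as its size over the root of F. Symbols came from GENCODE M21, matching 54723 of 54838 identifiers, all 36 receptors included. Promoter sequences are those of RefSeq. Of the called receptors, Nr1h3, Nr3c2 and Rara overlap a small annotated gene on the same strand, where shared reads went uncounted.

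Replicates differed by more than counting noise (chi-square per degree of freedom 5.51 to 72.3). On simulated counts, genes changed 2-fold were called in 32.3% of cases for CCl4 (10990 genes), 66.2% for PH (10402 genes) and 27.7% for the difference (11573 genes). The corresponding shares for 4-fold changes were 84.2%, 98.4% and 78.8%, and for 1.5-fold changes 1.54%, 31.8% and 3.08%. Only 57 to 66 genes were changed at each fold there, against 2599, 1871 and 633 genes called in the real comparisons. The Benjamini-Hochberg threshold depends on how many genes change, so these shares need not hold for the real tests. The receptors, the gene lists and the tests were chosen with earlier results of these data known. Values per sample are given for called receptors and a fixed set of 8, and from other lists the called gene of smallest adjusted p per direction is named, with called members behind a count of 5 or fewer and other receptors added. Some genes that this rule names are not reported here. DESeq2 1.42.0, limma-voom (limma 3.58.1), other scalings and filters, a 4-group fit, a replicate block and each sample left out were tried. Plots used matplotlib 3.10.9 and tables pandas 2.3.3, both in Python 3.11.15.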

Additional observations from a re-analysis of the deposited data

Results flagged for a closer look

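In 4 of 60 groups of 5 samples examined, 1 sample lay far from the others of its group, against about 1 in 20 groups by chance. PH day 3 replicate 16 had 25.6 CPM of Nr2c1. PH day 0 replicate 15 had 73.9 CPM of Nr3c1, PH day 0 replicate 12 had 21.0 CPM of Nr6a1 and PH day 0 replicate 13 had 54.9 CPM of Ppara, each the highest of its group. With these samples included, edgeR with TMM scaling called none of these receptors after PH. Without PH day 0 replicate 12, Nr6a1 was called at 1.06 (edgeR adjusted p = 0.00099), against 0.63 with it. The changes after CCl4 and after PH differed by a test of the difference itself for Rara, at -1.24 on the log2 scale (edgeR adjusted p = 0.0039), and for Nr1h4, at -0.88 (edgeR adjusted p = 0.0060), both lower after CCl4.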

How the results depend on the processing

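Over all alternatives, 1520 test results of single receptors kept their side of the threshold, 48 passed it newly and 34 no longer passed it. None that was called changed sign. Results called in neither setting could change sign and still count among the 1520, as for Hnf4a after CCl4 (-0.09, and up to 0.34 over the alternatives). After CCl4, scaling by library size alone gave 3 receptors that rose and 3 that fell, against 0 and 8. The count over samples left out was 0 to 1 and 4 to 10. Without a filter on low counts, 0 rose and 12 of 36 fell, of which 11 had also been tested with the filter. After PH the count that rose was 3, with 6 by library size, 5 without a filter, 1 in the 4-group fit and 2 to 5 over samples left out, and the count that fell was 4, with 2 by library size and 3 to 5. In the difference, 2 receptors were lower after CCl4, with 1 by library size, 3 by DESeq2 or limma-voom and 2 to 6 over samples left out. List genes called in the difference were 38, with 25 by library size and 21 to 60 over samples left out. Receptors called the same way in both challenges were 1, with 2 by library size, at least 1 CPM, DESeq2 or limma-voom, 4 without a filter and 3 in the 4-group fit. The cause was not tested. Library size scaling also put 87.5%, 78.9% and 75.9% of called genes on the higher side for CCl4, PH and the difference, against 49.2%, 54.8% and 27.5%.

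The labels do not say whether the PH numbers 12 to 16 pair the samples, and the main PH test treated them as unpaired. Same-numbered samples correlated at -0.030 to 0.103 in their deviations, and different-numbered samples at -0.088 to 0.047. Numbers 16 (0.103) and 15 (0.076) lay above the different-numbered range, and the other same-numbered values lay within it. These correlations thus cannot tell whether the samples were paired. With the replicate number as a block, 5 receptors rose after PH, Nr6a1 and Ppard being added, and 25 list genes differed between the challenges. The depth limits Vdr, Hnf4g, Nr4a2, Nr4a3, Nr2f1 and Esrrg, for which few reads were counted.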
